A study of Homo sapiens with 8 samples.

Results

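The 10 genes described here, ATF4, ATF3, DDIT3, CEBPB, CEBPG, PPP1R15A, TRIB3, CHAC1, NUPR1 and SESN2, make up a textbook set of ATF4-CHOP stress transcription genes. They were chosen by name from the 23393 genes of the count table, and all 10 passed the filter on low counts that left 15262 tested genes. RNA-seq was performed on MDA-MB-231, an established human triple-negative breast cancer line that has little of the arginine-making enzyme ASS1, and on ρ0 cells derived from it, which were depleted of mitochondrial DNA. Each line had 2 control libraries and 2 arginine-starved libraries, 8 in all. Starvation lasted 48 h. Per the labels it was brought about by arginine deiminase (ADI), an arginine-degrading enzyme, at 0.3 µg/mL, whereas the study's text speaks of medium without arginine. The control libraries carry no treatment in their labels. All ρ0 libraries came from 1 clone, number 27, which the study kept in ethidium bromide, uridine and pyruvate, so that the loss of mitochondrial DNA, the clone and its culture supplements cannot be told apart. Nothing in the labels says whether replicates were separate cultures, so p-values measure the spread between these libraries, which may be technical.

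ATF4 is a bZIP transcription factor of the integrated stress response. Kinases that sense amino acid shortage (GCN2), unfolded protein in the endoplasmic reticulum (PERK) or heme shortage and mitochondrial distress (HRI) phosphorylate eIF2α, which lowers translation in general and raises that of ATF4 mRNA. ATF4, alone or with C/EBP partners, then switches on genes of amino acid supply, and under lasting stress it raises CHOP, the product of DDIT3, while GADD34, the product of PPP1R15A, reverses the phosphorylation of eIF2α. Much of this control acts on translation and protein, which RNA-seq does not measure.

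ATF4 and its C/EBP partners are known to bind composite elements of the form TGATGNAA, and CREB/ATF dimers bind the cAMP response element TGACGTCA. Both were searched on both strands in RefSeq promoter windows of 300 bases (250 before to 50 after an annotated start, GRCh38.p14), which the reference held for 9 of the 10 genes, in 16 windows. NUPR1 was not among them. TGATGNAA was found for 3 genes, ATF3, CHAC1 and CEBPG, and in 4.46% of the 27305 genes with a window. TGACGTCA was found for PPP1R15A, and in 2.25% of all genes. The endoplasmic reticulum stress element, CCAAT and CCACG 9 bases apart, was found for 0 of the 9 genes and in 0.0916% of all genes. All stretches that hold a match are printed, whatever the response of the gene to starvation. Each runs 5′ to 3′ on the plus strand, which is the gene's strand, with the match in capitals. The ATF3 stretch is chr1:212565205-212565234, its match 191 bases before the annotated start, and the CEBPG stretch is chr19:33374060-33374089, 42 bases before it. The CHAC1 stretch is chr15:40953251-40953280, 209 bases before the start, and matches on the reverse strand. The PPP1R15A stretch is chr19:48872352-48872381, 58 bases before the start. No match of one motif overlapped a match of another.
ATF3: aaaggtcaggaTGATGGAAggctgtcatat
CHAC1: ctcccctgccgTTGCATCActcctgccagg
CEBPG: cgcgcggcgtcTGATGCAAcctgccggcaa
PPP1R15A: gcctctcttcgTGACGTCAgcacgccgggc
The CHAC1 stretch also lies in an exon of a longer transcript in GENCODE 29. A match describes letters in a window and does not show that a factor was bound.

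The libraries held between 25259503 and 31022155 counts. The ρ0 control libraries stood apart, since their biological coefficient of variation was 25.1%, against 1.84% to 5.16% within the other groups. Markers known to be high in MDA-MB-231 (6 genes, VIM and CD44 among them) summed to between 2519 and 8041 CPM (counts scaled to a common library size by TMM). SPARC, on the same list, was low in every group. Its mean level was 2.36 and 0.057 CPM in parental control and starved cells, and 1.43 and 0.34 CPM in ρ0 control and starved cells. Luminal markers (7 genes) summed to 16.1 to 59.4 CPM, and some of them split the lines. Mean levels in parental and ρ0 control cells were 0.030 and 15.002 CPM for CDH1 (adjusted p = 7.87e-06), 0.470 and 23.1 CPM for EPCAM (adjusted p = 2.22e-06) and 7.35 and 0.033 CPM for FOXA1 (adjusted p = 3.45e-06). The part of these differences in the comparisons of the lines given here was not tested. Markers of blood and endothelial cells (6 genes) summed to 0.436 to 6.63 CPM, with 2 to 4 of these 6 genes at 0 in each library. None of the 12 names searched for protein genes of the mitochondrial genome was in the table, so the ρ0 state could not be checked here.

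Arginine starvation was followed by higher mRNA of most of the 10 genes in both lines, but not of the same genes to the same degree. DEGs were required to pass an adjusted p of 0.05 (edgeR's quasi-likelihood test, Benjamini-Hochberg) and to change by more than 1 in either direction on the log2 scale. In parental cells 7 of the 10 genes were up-regulated DEGs and 0 were down-regulated, where 12.7% of all tested genes were up-regulated and 22.1% down-regulated. In ρ0 cells 9 were up-regulated and 0 down-regulated, against 4.22% and 8.19% of all tested genes. The median log2 fold change of the 10 genes was 1.60 in parental and 1.83 in ρ0 cells, beside -0.07 and -0.02 over all tested genes. Upper quartile scaling moved the median of all genes in parental cells to -0.19 and total counts alone to -0.23, and the median of the 10 genes to 1.48 and 1.43. In bulk RNA, fewer cells with a transcript and less of it per cell cannot be told apart.

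**Figure D1:**
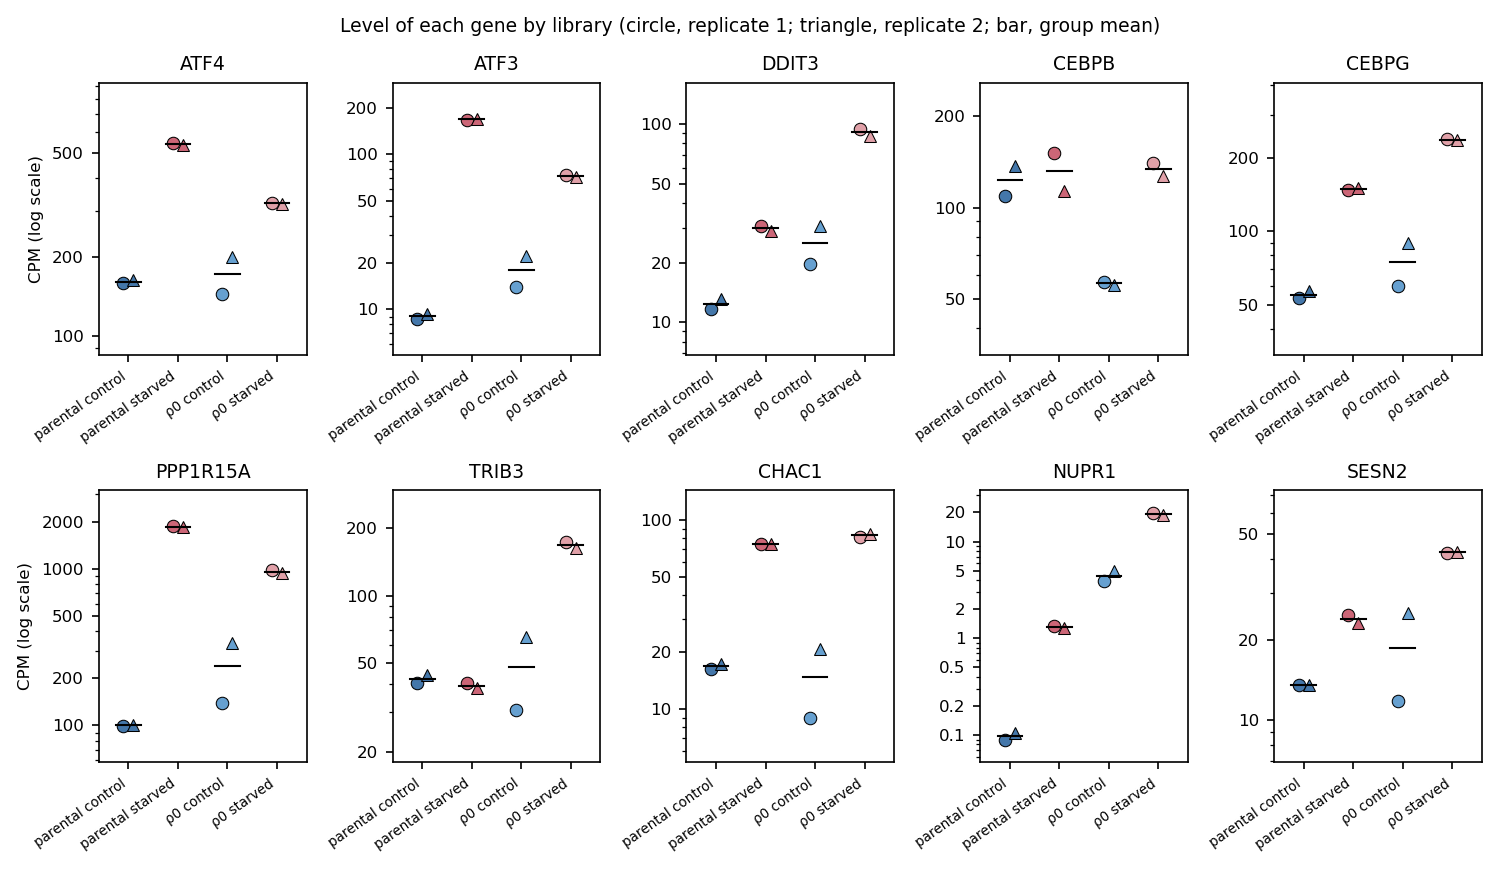
Level of each of the 10 genes (CPM after TMM scaling, log axis) in the 8 libraries, as points by group with the group mean as a bar. The starved libraries of each line lie close together except for CEBPB in parental cells (151 and 113 CPM), while the ρ0 control libraries lie apart for most genes, with PPP1R15A at 138 and 338 CPM. TRIB3 and CEBPB differ from the rest in parental cells, where starved and control libraries overlap.

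ATF4 stood at 159 and 163 CPM in the parental control libraries and at 543 and 537 CPM in the starved ones. In ρ0 cells it stood at 144 and 201 CPM in control and at 322 and 319 CPM in starved libraries. The controls of the lines overlapped, both starved pairs lay above them, and the parental starved pair was highest. The rise in parental cells was 3.36-fold (log2 1.75, standard error 0.15, adjusted p = 4.68e-05). In ρ0 cells the difference was 1.86-fold (log2 0.89, standard error 0.14, adjusted p = 0.00254), under the fold threshold, which made ATF4 the gene of the 10 that was not a DEG there. It was 1.17 on the log2 scale, past the threshold, without ρ0 control replicate 2. The genome holds 4 annotated ATF4 pseudogenes in RefSeq, of which 0 were in the count table, so reads of these copies could have been counted on ATF4 or lost.

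ATF3 encodes a stress-inducible member of the ATF/CREB family that represses many promoters. Its libraries read 8.69 and 9.34 CPM in parental control and 166 and 170 CPM in parental starved cells. They read 14.0 and 22.0 CPM in ρ0 control and 74.0 and 71.5 CPM in ρ0 starved cells. No groups overlapped. ATF3 rose 18.6-fold in parental cells (log2 4.22, standard error 0.20, adjusted p = 9.00e-06), rank 30 from the highest of the 15262 tested genes. In ρ0 cells it rose 4.04-fold (log2 2.02, standard error 0.19, adjusted p = 3.05e-04).

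DDIT3 encodes CHOP, a bZIP factor known for its part in stress-induced cell death. It was at 11.7 and 13.1 CPM in parental control and at 30.7 and 29.0 CPM in parental starved cells. It was at 19.7 and 30.5 CPM in ρ0 control cells, so that 1 of these untreated ρ0 libraries lay within the range of the starved parental ones. In starved ρ0 cells DDIT3 reached 94.9 and 87.2 CPM, above every other library. The rise was 2.41-fold in parental cells (log2 1.27, standard error 0.19, adjusted p = 8.25e-04) and 3.62-fold in ρ0 cells (log2 1.86, standard error 0.19, adjusted p = 4.50e-04). The exons of DDIT3 share 62 bases with MARS on the opposite strand. The strand setting of the counting is not given in the sources used here, so reads of this stretch cannot be assigned. DDIT3 exons also share 105 bases with AC022506.1 on the same strand, a gene not in the count table. Strand would not separate reads of those bases.

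CEBPB and CEBPG encode C/EBP factors that pair with ATF4. CEBPB was at 109 and 138 CPM in parental control and at 151 and 113 CPM in parental starved libraries, which overlapped, with a log2 difference of 0.10 (95% interval -0.27 to 0.47, adjusted p = 0.596). In ρ0 control cells CEBPB was at 57.0 and 55.8 CPM, the lowest of any group, and in ρ0 starved cells it was at 140 and 127 CPM, within the range of the parental libraries. Its rise in ρ0 cells was 2.37-fold (log2 1.25, standard error 0.16, adjusted p = 0.00108). CEBPB was also the only gene of the 10 whose ρ0 control libraries were nearly equal. An antisense gene, CEBPB-AS1, shares 231 bases with its exon, is not in the table, and cannot be told apart from CEBPB without strand.

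CEBPG was at 53.2 and 56.9 CPM in parental control and at 148 and 151 CPM in parental starved cells. It was at 59.9 and 89.8 CPM in ρ0 control and at 239 and 237 CPM in ρ0 starved cells. Starved libraries lay above controls in both lines, and the starved ρ0 pair was highest. CEBPG rose 2.72-fold in parental cells (log2 1.44, standard error 0.17, adjusted p = 2.22e-04) and 3.18-fold in ρ0 cells (log2 1.67, standard error 0.17, adjusted p = 4.37e-04).

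PPP1R15A, whose product GADD34 brings a phosphatase to eIF2α, had the largest counts of the 10 genes in starved cells of both lines. The parental control libraries read 99.4 and 101 CPM and the parental starved ones 1873 and 1847 CPM. The ρ0 control libraries read 138 and 338 CPM and the ρ0 starved ones 982 and 942 CPM. No groups overlapped, although the ρ0 control libraries differed 2.45-fold between themselves. PPP1R15A rose 18.5-fold in parental cells (log2 4.21, standard error 0.38, adjusted p = 6.80e-05), rank 32 from the highest of all tested genes and within the standard errors of the ATF3 value. Without parental control replicate 1 the order of ATF3 and PPP1R15A turned (log2 4.17 and 4.20). Its rise in ρ0 cells was 4.04-fold (log2 2.01, standard error 0.35, adjusted p = 0.00356), and the log2 value was 1.51 without ρ0 control replicate 1 and 2.81 without replicate 2.

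TRIB3 encodes a pseudokinase that binds ATF4 and CHOP and lowers their activity. In parental cells it did not follow the other genes. The control libraries read 40.4 and 43.9 CPM and the starved ones 40.7 and 38.4 CPM, an overlap, with a log2 difference of -0.09 (95% interval -0.78 to 0.59, adjusted p = 0.800). In ρ0 cells TRIB3 was at 30.6 and 65.3 CPM in control and at 174 and 163 CPM in starved libraries, the highest of any group. The rise was 3.51-fold (log2 1.81, standard error 0.30, adjusted p = 0.00284).

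CHAC1 encodes an enzyme that breaks down glutathione and is known as a target of ATF4. It was at 16.2 and 17.4 CPM in parental control and at 75.0 and 74.7 CPM in parental starved cells. It was at 8.95 and 20.8 CPM in ρ0 control libraries, which enclosed the parental controls, and at 81.1 and 84.4 CPM in ρ0 starved libraries. The starved libraries of the lines lay between 74.7 and 84.4 CPM, above all controls. CHAC1 rose 4.45-fold in parental cells (log2 2.16, standard error 0.32, adjusted p = 6.98e-04) and 5.56-fold in ρ0 cells (log2 2.47, standard error 0.32, adjusted p = 0.00112), where its fold change was the largest of the 10 genes.

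NUPR1, a small chromatin-associated stress protein, was the gene of the 10 that separated the lines most. It had 3 counts in each of the parental control libraries and 34 and 36 in the starved ones. The ρ0 control libraries had 112 and 155 counts and the starved ones 591 and 457. As summed counts over library size, the parental starved libraries held 13.6 times the parental control level (exact 95% Poisson interval 5.93 to 38.2, which covers counting error only). The ρ0 control libraries held 46.1 times that level (20.9 to 127) and the ρ0 starved ones 202 times (92.5 to 552). The level in untreated ρ0 cells, 3.89 and 4.98 CPM, was above that in starved parental cells, 1.35 and 1.28 CPM. Starved ρ0 libraries stood at 20.0 and 18.9 CPM. Within the ρ0 line NUPR1 rose 4.38-fold (log2 2.13, standard error 0.16, adjusted p = 1.72e-04). In parental cells the fitted log2 change was 3.70 (adjusted p = 5.49e-05), which depends on the prior count, and the median of the 10 genes given above stays the same at the lower end of the interval.

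SESN2 encodes Sestrin 2, a leucine-binding inhibitor of mTORC1 signaling. It was at 13.5 CPM in both parental control libraries, with values of 24.8 and 23.0 CPM after starvation. The ρ0 control libraries read 11.8 and 25.2 CPM, of which 1 lay below the parental controls and 1 above the starved parental libraries. The starved ρ0 libraries, at 42.3 and 42.8 CPM, were above all others. The change in parental cells was 1.77-fold (log2 0.82, standard error 0.30, adjusted p = 0.0414), under the fold threshold. Over other scalings, filters and models its adjusted p ranged from 2.49e-07 to 0.0902. It was 0.0726 with upper quartile scaling and 0.0902 with total counts alone. It was also over 0.05 whenever a library other than a ρ0 control was left out (0.0570 to 0.149). In ρ0 cells the rise was 2.30-fold (log2 1.20, standard error 0.29, adjusted p = 0.0151). That call was lost without ρ0 control replicate 1 (log2 0.75) and without either ρ0 starved library (adjusted p = 0.0656 and 0.0672). It was also lost in a fit to the ρ0 libraries alone (adjusted p = 0.0805).

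**Figure D2:**
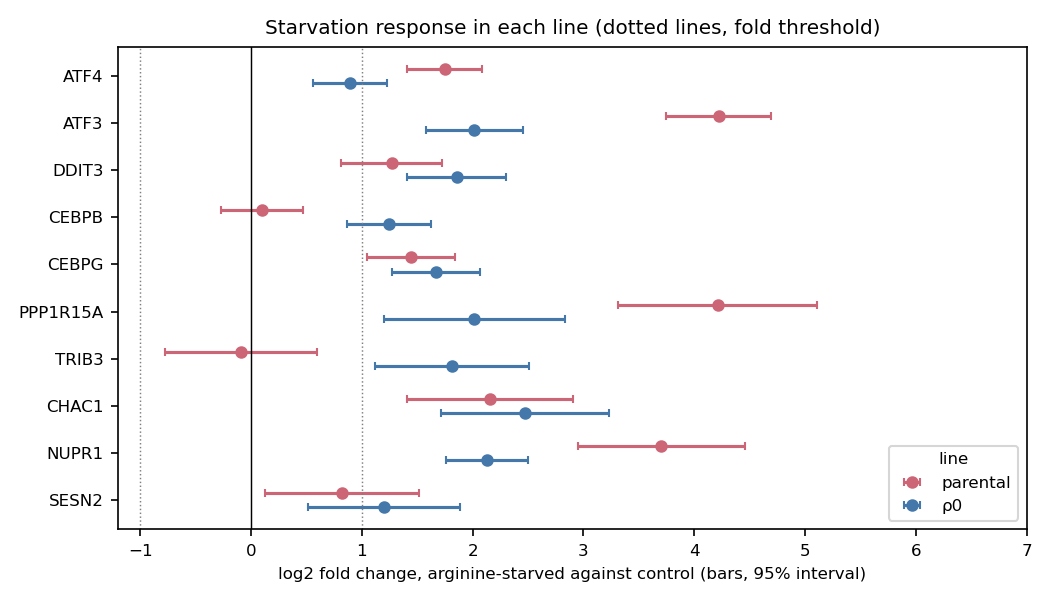
Log2 fold change of each gene between arginine-starved and control libraries in parental and ρ0 cells, with 95% intervals from the edgeR fit and dotted lines at the fold threshold. ATF3 and PPP1R15A lie at 4.22 and 4.21 in parental cells and near 2 in ρ0 cells, while CEBPB and TRIB3 lie near 0 in parental cells only.

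The question of whether the lines responded to different degrees was tested as an interaction, the ρ0 response minus the parental response, called at an adjusted p under 0.05 with no fold threshold. Of the 10 genes 2 had a higher response in ρ0 cells and 4 a lower one, where 21.6% of all tested genes had a higher and 18.8% a lower response. The 4 genes with a lower response were ATF3 (log2 difference -2.20, standard error 0.26, adjusted p = 0.00111), PPP1R15A (-2.20, standard error 0.48, adjusted p = 0.0105), NUPR1 (-1.57, standard error 0.39, adjusted p = 0.0166) and ATF4 (-0.85, standard error 0.20, adjusted p = 0.0136). The NUPR1 difference rests on the 3 counts in each parental control library. The 2 genes with a higher response were TRIB3 (1.90, standard error 0.41, adjusted p = 0.0102) and CEBPB (1.15, standard error 0.22, adjusted p = 0.00690). They are also the genes that did not pass the test in parental cells.

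For the other 4 genes the test of the difference did not pass the threshold, and the intervals leave room for sizeable differences. DDIT3 differed by 0.59 (95% interval -0.04 to 1.21, adjusted p = 0.120). CEBPG differed by 0.23 (-0.33 to 0.78) and SESN2 by 0.38 (-0.60 to 1.35). The interval was widest for CHAC1, at 0.32 (-0.71 to 1.34).

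**Figure D3:**
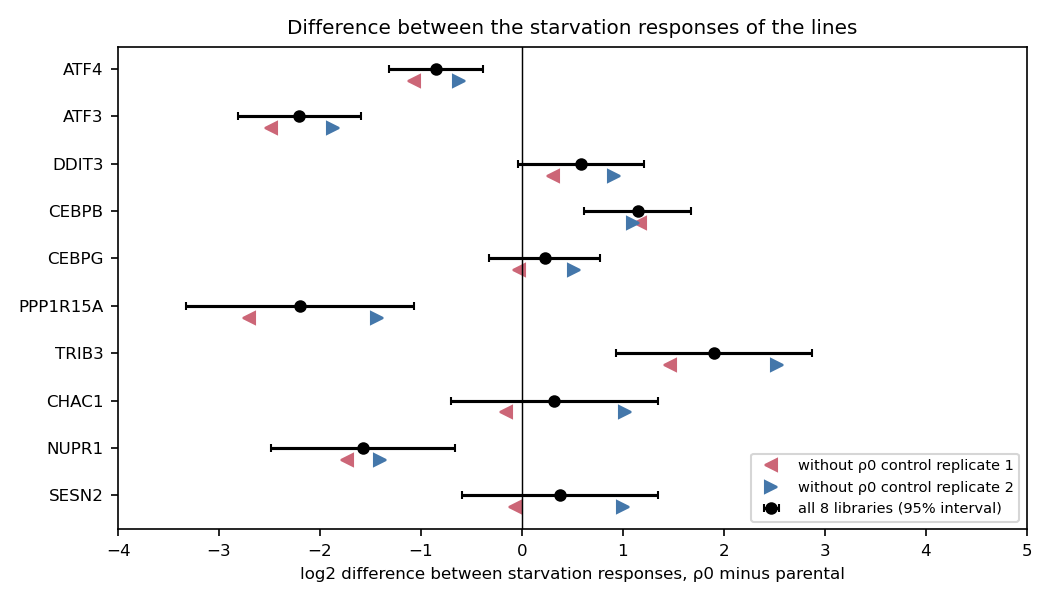
Difference between the starvation responses (ρ0 minus parental, log2) of each gene with all 8 libraries and its 95% interval, and without each ρ0 control library. The signs of ATF4, ATF3, CEBPB, PPP1R15A, TRIB3 and NUPR1 are the same in all 3 fits, while CEBPG, CHAC1 and SESN2 fall just under 0 without ρ0 control replicate 1.

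Each of these differences contains the ρ0 control level, and the ρ0 control libraries differed from each other in most of the 10 genes. Replicate 2 was higher for 9 of the 10, with a median log2 difference of 0.62, while 49.6% of all tested genes were higher in it. The ratios of replicate 2 to replicate 1 were 2.45 for PPP1R15A, 2.32 for CHAC1, 2.14 for SESN2 and 2.13 for TRIB3, and between 1.28 and 1.57 for ATF3, DDIT3, CEBPG, ATF4 and NUPR1. The exception was CEBPB, with a ratio of higher to lower of 1.02. In the other groups the median difference between replicates lay between -0.05 and 0.10. Replicate 2 was higher for 9 of the 10 genes in parental controls too, and for 2 of the 10 in each starved group. The size of the difference, not the count, thus set the ρ0 controls apart. Without ρ0 control replicate 1 the difference between the responses was -1.07 for ATF4, -2.49 for ATF3, -2.70 for PPP1R15A, -1.73 for NUPR1 and 1.46 for TRIB3. Without replicate 2 these were -0.62, -1.87, -1.44, -1.40 and 2.53, so each kept its direction. The adjusted p for ATF4 was over 0.05 whenever a library of any other group was left out (0.0504 to 0.0594). That for PPP1R15A was over it without parental control replicate 1 (0.0508) or 2 (0.0503), and that for NUPR1 was 0.0607 to 0.0994 without either of these and 0.0515 without parental starved replicate 1. With limma-voom and a weight for each group, it was 0.0684 for NUPR1.

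The lines were next compared without starvation. Between the control libraries, 3 of the 10 genes were higher in ρ0 cells and 1 was lower by the DEG rule, against 13.6% and 17.3% of all tested genes. The higher ones were NUPR1, as given above, PPP1R15A (log2 1.25, standard error 0.34, adjusted p = 0.0148) and DDIT3 (1.02, standard error 0.19, adjusted p = 0.00263). CEBPB was lower (log2 -1.13, standard error 0.16, adjusted p = 6.25e-04). ATF3 lay just outside the fold threshold at a log2 difference of 0.997 (adjusted p = 0.00285) and DDIT3 just inside it, and over other scalings, filters and tools they ranged from 0.90 to 1.02 and from 0.93 to 1.05, on either side of it. ATF4 itself differed by 0.10 (95% interval -0.23 to 0.43, adjusted p = 0.565). Without ρ0 control replicate 2 the values were 0.52 for PPP1R15A and 0.73 for DDIT3, both under the fold threshold. Without parental control replicate 1 DDIT3 was at 0.94, also under it, and the adjusted p of PPP1R15A was 0.0845, so that NUPR1 was the 1 gene still called higher. Without parental control replicate 2 the adjusted p of PPP1R15A was 0.0802 and the value of CEBPB was -0.96, under the fold threshold. The signs of ATF4, TRIB3, CHAC1 and SESN2 in this comparison changed with the ρ0 control library left out.

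After starvation the libraries lay close to their replicates for 9 of the 10 genes, the exception being CEBPB in parental cells, at 1.33-fold apart. DDIT3 (log2 1.61, standard error 0.19, adjusted p = 2.07e-04), TRIB3 (2.09, standard error 0.30, adjusted p = 5.78e-04) and NUPR1 (3.89, standard error 0.18, adjusted p = 3.14e-06) were higher in ρ0 than in parental cells. ATF3 was lower (-1.21, standard error 0.18, adjusted p = 6.43e-04). These 3 and 1 of the 10 genes stand beside 18.7% and 16.8% of all tested genes. PPP1R15A (-0.95) and ATF4 (-0.75) were lower, and SESN2 (0.83) and CEBPG (0.67) higher, with adjusted p under 0.05 but under the fold threshold. Each gene had 1 estimate of spread over all 8 libraries, so the ρ0 control pair also enters these standard errors. Over other scalings, filters and models the adjusted p ranged from 3.99e-11 to 0.0519 for PPP1R15A, the latter with upper quartile scaling. For SESN2 it ranged from 3.96e-09 to 0.0419. Whenever a library other than a ρ0 control was left out, neither gene passed, with log2 values of -0.96 to -0.89 for PPP1R15A and 0.78 to 0.89 for SESN2. CEBPG did not pass without parental starved replicate 1. CEBPB differed by 0.02 (95% interval -0.35 to 0.39, and -0.18 to 0.24 with libraries left out) and CHAC1 by 0.14 (-0.56 to 0.85). ATF4, ATF3 and PPP1R15A were thus highest in starved parental cells, and DDIT3, CEBPG, TRIB3, NUPR1 and SESN2 in starved ρ0 cells.

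Levels between genes were compared per kilobase of the median protein-coding transcript in GENCODE 29. ATF4 was the highest of the 10 in parental control cells, at 84.2 ± 1.4 CPM per kb (SD, n = 2), ahead of CEBPB at 63.1 ± 10.3 and PPP1R15A at 42.2 ± 0.54. PPP1R15A was highest in the other groups, at 782 ± 7.8 in parental starved, 100.2 ± 59.4 in ρ0 control and 405 ± 12.1 in ρ0 starved cells. In ρ0 control cells it did not differ from ATF4, at 90.2 ± 20.9, by more than the spread of the libraries. DDIT3 came after ATF4 in ρ0 starved cells, at 96.9 ± 5.8 CPM per kb, and was at 31.7 ± 1.3 in parental starved cells. The annotated transcripts of NUPR1 run from 550 to 5491 bases, so its level per kb was not placed in the order.

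Of 9 paralogs of the 10 genes, 3 were up-regulated and 1 down-regulated in parental cells, where 12.7% and 22.1% of all tested genes were, and 0 and 0 in ρ0 cells, where 4.22% and 8.19% were. In ρ0 cells 2 were higher and 0 lower with an adjusted p under 0.05 at any fold change. By that rule 19.2% of all tested genes were higher and 22.1% lower there. The median log2 fold change of the paralogs was -0.08 and 0.09. ATF5, which like ATF4 is translated under eIF2α phosphorylation, rose by 2.09 on the log2 scale in parental cells (adjusted p = 8.78e-05), with 0.09 in ρ0 cells (adjusted p = 0.754) and a difference between the responses of -2.01 (adjusted p = 0.00184). Its mean level went from 8.26 to 35.3 CPM in parental cells. In ρ0 cells it was already at 28.9 CPM in control (SD 9.05) and was at 30.7 CPM after starvation. PPP1R15B, the constitutive counterpart of PPP1R15A, rose by 1.41 in parental cells and by 0.98 in ρ0 cells (adjusted p = 1.78e-04), the latter just under the fold threshold. CHAC2, a second glutathione-degrading enzyme, rose by 1.80 in parental cells, with 0.23 in ρ0 cells (adjusted p = 0.250) and a difference of -1.57 (adjusted p = 0.00156). TRIB2, a relative of TRIB3, fell by 3.93 in parental cells (adjusted p = 9.62e-05), with -0.29 in ρ0 cells (adjusted p = 0.512) and a difference between the responses of 3.64 (adjusted p = 0.00185).

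Of 13 other bZIP factors that can pair with ATF4, ATF3 or CHOP, 5 were up-regulated in parental and 4 in ρ0 cells, beside 12.7% and 4.22% of all tested genes, and none was a down-regulated DEG in either. FOS, a subunit of AP-1, rose by 2.81 in parental cells, with -0.03 in ρ0 cells (adjusted p = 0.925) and a difference between the responses of -2.84 (adjusted p = 4.15e-04). JUNB, another AP-1 subunit, rose by 2.03 in parental and 1.51 in ρ0 cells, and MAFF, a small MAF protein, by 1.88 and 2.43. The test of the difference passed for neither of them (adjusted p = 0.0867 and 0.0514). JDP2, a JUN-binding repressor, rose by 1.57 in ρ0 cells and by 0.80 in parental cells, under the fold threshold, a difference of 0.77 (adjusted p = 0.0146). NFE2L1 differed more, by 1.29 (adjusted p = 2.89e-04). It fell by 0.52 in parental cells (adjusted p = 4.97e-04) and rose by 0.76 in ρ0 cells (adjusted p = 3.45e-04), both under the fold threshold.

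**Figure D4:**
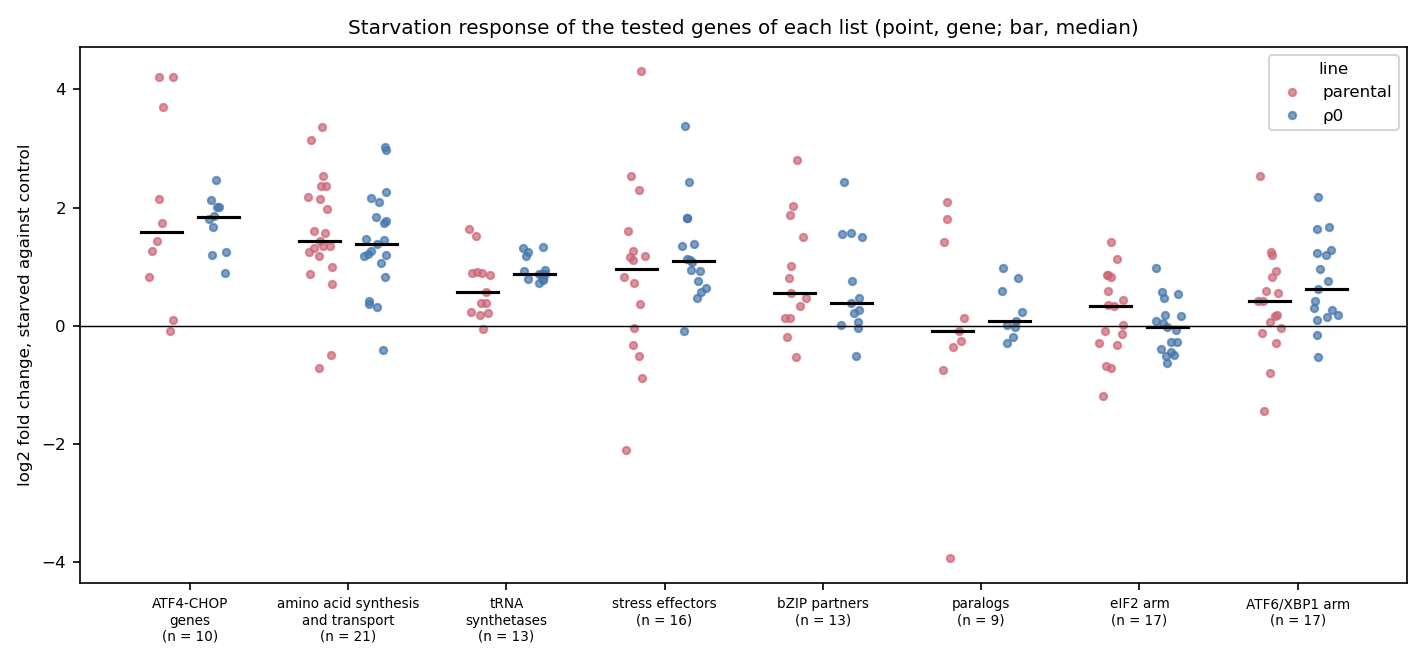
Log2 fold change after arginine starvation of each tested gene in 8 lists, in parental and ρ0 cells, with the median as a bar and n the number of tested genes. The medians of the 10 ATF4-CHOP genes (1.60 and 1.83) and of the 21 amino acid genes (1.44 and 1.38) lie highest, and those of the eIF2 arm (0.34 and -0.02) and the paralogs (-0.08 and 0.09) lie near 0.

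Among genes of amino acid synthesis and transport known as ATF4 targets, 16 of 21 tested genes were up-regulated in each line and 0 were down-regulated DEGs, with medians of 1.44 and 1.38. The shares of all tested genes that were up-regulated were 12.7% and 4.22%. ASNS, asparagine synthetase, rose by 2.37 in parental and 2.97 in ρ0 cells. The test of the difference did not pass for it (0.60, adjusted p = 0.236), and its starved mean level was 411 CPM in both lines. CTH, which makes cysteine from cystathionine, rose by 3.14 in parental and 3.02 in ρ0 cells. SLC3A2, the heavy chain of several amino acid exchangers, rose by 3.37 in parental and 1.46 in ρ0 cells, a difference of -1.90 (adjusted p = 0.00387). PHGDH, the entry enzyme of serine synthesis, differed the other way, by 2.87 (adjusted p = 1.67e-04), with a change of -0.71 in parental and 2.16 in ρ0 cells. Its mean level went from 79.8 to 48.7 CPM in parental cells and from 1.03 to 4.61 CPM in ρ0 cells, so that starved ρ0 cells stayed below both parental groups. Of 13 tRNA synthetase and tRNA export genes, 2 were up-regulated in parental and 4 in ρ0 cells, beside 12.7% and 4.22% of all tested genes. SARS rose by 1.64 in parental and 1.25 in ρ0 cells and YARS by 1.53 and 1.34, while AARS rose by 0.90, under the fold threshold, and 1.33. The medians of the 13 genes were 0.57 and 0.88.

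Of 16 tested genes for other stress effectors and secreted factors known as ATF4 or CHOP targets, 8 were up-regulated and 1 down-regulated in parental cells. In ρ0 cells 9 and 0 were. Of all tested genes 12.7% and 22.1% were in parental cells and 4.22% and 8.19% in ρ0 cells. At any fold change 10 effectors were higher, 2 lower and 4 not past the adjusted p in parental cells, and 14, 0 and 2 in ρ0 cells. By that rule 30.4% of all tested genes were higher and 35.5% lower in parental cells, and 19.2% and 22.1% in ρ0 cells. GDF15, a secreted stress cytokine, rose by 2.53 and 2.43, and ADM2, a secreted peptide of the adrenomedullin family, by 1.61 and 3.38, a difference of 1.77 (adjusted p = 0.00158). PMAIP1, which encodes the BH3-only protein NOXA, rose by 2.30 in parental and 1.08 in ρ0 cells, a difference of -1.22 (adjusted p = 0.0450). Its mean level went from 27.5 to 136 CPM in parental cells and from 112 (SD 55.8) to 238 CPM in ρ0 cells. It was thus higher in ρ0 cells with and without starvation. FAM129A, which encodes Niban, fell by 2.10 in parental cells and rose by 1.14 in ρ0 cells, a difference of 3.23 (adjusted p = 7.63e-05).

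Of 17 genes of the eIF2 arm, which holds the eIF2α kinases, eIF2B and the phosphatase subunits, 2 were up-regulated and 1 down-regulated in parental cells and 0 and 0 in ρ0 cells, beside 12.7% and 22.1% of all tested genes in parental and 4.22% and 8.19% in ρ0 cells. With an adjusted p under 0.05 at any fold change, 8 were higher and 4 lower in parental cells and 3 and 4 in ρ0 cells. By that rule 30.4% of all tested genes were higher and 35.5% lower in parental cells, and 19.2% and 22.1% in ρ0 cells. The up-regulated ones were PPP1R15B, given above, and DNAJC3, an inhibitor of PERK, at 1.13, with 0.57 in ρ0 cells (adjusted p = 0.0157). The down-regulated one was IMPACT, an inhibitor of GCN2 activation (log2 -1.19, adjusted p = 7.72e-05), with 0.06 in ρ0 cells (adjusted p = 0.713). Its responses differed by 1.25 (adjusted p = 0.00131). Of 17 genes of the ATF6/XBP1 arm of the unfolded protein response, 3 were up-regulated and 1 down-regulated in parental cells, and 6 and 0 in ρ0 cells. These stand beside the same 12.7% and 22.1% of all tested genes in parental and 4.22% and 8.19% in ρ0 cells. XBP1, the factor activated by IRE1 splicing, rose by 2.53 and 1.68, and ERN1, which encodes IRE1α, by 1.25 and 2.18. The difference between the responses was -0.86 for XBP1 (adjusted p = 0.0167) and 0.93 for ERN1 (adjusted p = 0.00752). PDIA4, a disulfide isomerase, fell by 1.44 in parental cells, with 0.10 in ρ0 cells (adjusted p = 0.772) and a difference of 1.54 (adjusted p = 0.0121).

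The genes whose pattern over the 4 groups was most like that of ATF4 and DDIT3 were found by Euclidean distance between centred group means of log2 CPM, among 9951 genes with a mean of at least 10 CPM. The 5 nearest to ATF4 were TROVE2, TRMT13, NOP58, RPF2 and DIMT1, at distances of 0.06 to 0.10. Among the 10 genes the one nearest to ATF4 was CEBPG, at a distance of 1.06 and rank 1982. DDIT3 had TSC22D1, AHR, VEGFA, VLDLR and NFIL3 as its 5 nearest, at distances of 0.23 to 0.41. CEBPG was the nearest ATF4-CHOP gene to DDIT3, at a distance of 0.76 and rank 21. With CEBPG included, 3 of the ATF4-CHOP genes were among the nearest 100. The ATF4 pattern, highest in starved parental cells, was thus nearer to many genes outside the set than to the other genes in it. DDIT3 had 3 of them among its nearest 100 genes, but its nearest genes also lay outside the set. With 4 group means as points, these distances are a description only.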

How the data were processed

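For the 8 libraries the authors deposited raw counts of reads by gene symbol, not normalized. The submitters' processing notes name Bowtie, Partek and hg19. Versions, annotation and strand setting are not given in the sources used here. The analysis used edgeR 4.0.16 in R 4.3.3: filterByExpr on the 4 groups (15262 of 23393 genes), TMM scaling, and the quasi-likelihood test with 1 mean per group over all 8 libraries (4 residual degrees of freedom, prior 3.40, biological coefficient of variation 12.4%). P-values were adjusted over all tested genes. DEGs passed an adjusted p of 0.05 with a change of more than 1 in either direction on the log2 scale, whereas interactions were called at any size. A standard error is the fitted log2 value divided by the root of its F statistic. Each gene had 1 estimate of spread over all 8 libraries. The spread of the ρ0 control pair thus enters the standard errors of comparisons that do not use that pair. The fit was tested on simulated data.

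The 10 genes and all other lists were chosen with earlier results of these data known, and no list was tested as a set. Named from the other lists were, per starvation contrast and the interaction, at most the 2 largest rises and 2 largest falls among called genes averaging 10 CPM or more whose groups did not overlap, plus ASNS and the 5 genes nearest to ATF4 and DDIT3. List genes are printed with their values in both lines, and the nearest genes with their distances only. CDH1, EPCAM, FOXA1 and SPARC were picked from the markers after their values were seen.

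Alternatives were RLE size factors, upper quartile and total counts as scaling, no filter, at least 10 counts in every library, DESeq2 1.42.0, limma-voom (limma 3.58.1), a block for the replicate number, fits to the libraries of 1 line, other fold thresholds, and each library left out in turn. A weight per group in limma-voom was an addition made after the data were seen. Transcript lengths and overlaps came from GENCODE 29, and promoter windows and pseudogenes from RefSeq (GRCh38.p14). No coordinates were taken across from hg19.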

Additional observations from a re-analysis of the deposited data

Results flagged for a closer look

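Starvation responses differed between the lines by the interaction test for 6 of the 10 genes (ρ0 minus parental, log2). The response was lower in ρ0 cells for ATF3 (-2.20), PPP1R15A (-2.20), NUPR1 (-1.57) and ATF4 (-0.85), and higher for TRIB3 (1.90) and CEBPB (1.15). Of all tested genes, 18.8% were called lower and 21.6% higher. The 4 differences other than those of CEBPB and NUPR1 contain ρ0 control values that differed 1.39-fold (ATF4), 1.57-fold (ATF3), 2.45-fold (PPP1R15A) and 2.13-fold (TRIB3) between the libraries, and their part in the size of the differences was not tested beyond leaving each library out. NUPR1 rests on 3 counts in each parental control library. CEBPB is the gene of the 6 whose lower ρ0 control level, 56.4 ± 0.87 CPM (SD, n = 2) against 123 ± 20.1 CPM in parental controls, stands beside starved levels of 134 ± 9.0 and 132 ± 26.8 CPM in ρ0 and parental cells.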

How the results depend on the processing

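With 2 libraries in each group, 7 of the 10 genes were up-regulated and 0 down-regulated in parental cells under every scaling, filter and tool run at the fold threshold and with each library left out, except that at least 10 counts in every library removed NUPR1 and left 6. In ρ0 cells 8 or 9 were up-regulated under these scalings, filters and tools, and 8 to 10 with a library left out. With the replicate number as a block the counts of genes higher and lower were 1931 and 3366 in parental and 638 and 1201 in ρ0 cells, 3098 and 2633 for the difference between responses, 2046 and 2643 between controls and 2854 and 2521 between starved lines, and no call on the 10 genes changed. Deviations of same-numbered libraries correlated by -0.05 to 0.04, and 0 of 6 pairs of groups were over 0.1, so no shared pattern by replicate number was seen. With 2 libraries in each group this cannot exclude that libraries were handled in pairs.

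With each library left out in turn, genes called higher and lower ranged from 1752 to 2170 and from 3102 to 3590 in parental cells, from 511 to 960 and from 805 to 1575 in ρ0 cells, from 1888 to 2375 and from 2441 to 2950 between controls, and from 2650 to 3115 and from 2296 to 2670 between starved lines. For the difference between responses they ranged from 1961 to 5331 and from 1473 to 4946, highest without ρ0 control replicate 1. Of the 10 genes, 2 to 6 then had a higher response in ρ0 cells (6 without ρ0 control replicate 2, with DDIT3, CEBPG, CHAC1 and SESN2 added) and 1 to 4 a lower one (1 without either parental control library). Between controls 1 to 4 were higher (1 without parental control replicate 1 or ρ0 control replicate 2) and 0 to 1 lower (0 without parental control replicate 2). At any fold change, genes higher and lower were 4637 and 5423 in parental cells, 2937 and 3371 in ρ0 cells, 4662 and 4847 between controls, and 5024 and 5120 between starved lines, with 5 and 3 of the 10 genes in the last. With a difference past 1 required between responses, 2026 genes were higher and 1011 lower. Limma-voom with a weight per group called 415 genes higher in ρ0 cells, and at least 10 counts in every library left 1290 and 1586 between controls.

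Signs turned for values that did not pass the threshold with all libraries. CEBPB in parental cells (0.10) was -0.018 with upper quartile and -0.060 with total counts, and ranged from -0.12 to 0.30 with libraries left out. Between starved lines (0.02) it ranged from -0.18 to 0.24. The difference between responses ranged from -0.033 to 0.52 for CEBPG, from -0.16 to 1.03 for CHAC1 and from -0.064 to 1.004 for SESN2, each lowest without ρ0 control replicate 1 and highest without replicate 2. Between controls, ATF4 ranged from -0.11 to 0.32, TRIB3 from -0.40 to 0.63, CHAC1 from -0.85 to 0.31 and SESN2 from -0.14 to 0.90, each lowest without ρ0 control replicate 2 and highest without replicate 1. The cause was not tested.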

Other observations

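The ρ0 control libraries differed by gene group and not only by scale. Replicate 2 was higher than replicate 1 for 9 of the 10 ATF4-CHOP genes (median log2 difference 0.62), for 19 of 21 genes of amino acid synthesis and transport (0.42) and for 11 of 13 tRNA synthetase and export genes (0.17). It was higher for 2 of 17 genes of the ATF6/XBP1 arm (median -0.55) and for 5 of 16 stress effectors (-0.25). Over all tested genes the median difference was 0 and 49.6% were higher. In parental controls replicate 2 was also higher for 9 of the 10 ATF4-CHOP genes, but by a median of 0.10. In the 3 groups other than the ρ0 controls the list medians between replicates lay much closer to 0. They were, for example, -0.05 to 0.10 for the ATF4-CHOP genes and -0.03 to 0.02 for the ATF6/XBP1 arm. With 1 such pair, this is a value of these libraries and no test was made.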
